A study of Mus musculus with 7 samples.

Results

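The regions described here are stretches of H3K27ac, acetylation of lysine 27 of histone H3, that lie far from every protein-coding gene in mouse globose basal cells, progenitors of the olfactory epithelium. A member is chosen by its place and by H3K27ac peaks alone: it is a contiguous stretch of at least 200 bp on chromosomes 1 to 19 that is covered by peaks of both H3K27ac libraries, lies outside all protein-coding genes and is more than 20 kb from the nearest end of one. The gene table was that of GRCm38.p6, with 20661 protein-coding genes on these chromosomes. In all, 5481 of 44512 H3K27ac regions of that length met the rule (12.3%), and they add up to 6.19 Mb. The study profiled H3K27ac and H3K27me3, trimethylation of the same residue, by chromatin immunoprecipitation and sequencing (ChIP-seq), with 2 libraries for each mark and 3 input libraries. Every library came from adult wild-type mice lesioned with methimazole, which kills most of the olfactory epithelium and sets off its repair, and sampled 7 to 10 days later. Each replicate was a separate pool of cells from 3 mice, enriched with an antibody to c-Kit and magnetic beads. There was no untreated group and no other cell type, and the pooling hides differences between mice. The libraries differ in mark and, between replicates of a mark, in pool. The labels do not say whether the marks share pools, but give H3K27me3 replicate 1 and H3K27ac replicate 2 a shared input. Other cells that carry c-Kit, such as mast cells and melanocytes, can be kept by this selection.

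Globose basal cells divide in the basal layer of the olfactory epithelium and give rise to new sensory neurons and, after injury, to other cell types. H3K27ac is laid down by the acetyltransferases p300 and CBP and lies at active promoters and at active enhancers, which can act on genes over long distances. H3K27me3 is written by Polycomb Repressive Complex 2 on repressed genes, and a lysine residue that is acetylated cannot be methylated at the same time, so overlap of the marks in a pool reflects different histone tails or different cells. Distal acetylated stretches also hold the starts of long noncoding RNAs (lncRNAs) and of microRNA host transcripts, which are not protein-coding genes.

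Members with an annotated start are the ones whose sequence can be read here, since the reference used holds start windows and microRNAs and no genome. The windows span 250 bases before to 50 bases after a start, from RefSeq on GRCm38.p6. The 4 below are shown because Dleu2 and Lncpint lie in members of very high H3K27ac, Dancr is a lncRNA of progenitor cells, and Malat1 lies in a member of 14947 bp. Capitals mark matches, on either strand, to a set of 7 motifs: the GC box GGGCGG, the E-boxes CAGCTG and CACGTG, the AP-1 type TGANTCA, the cAMP response element TGACGTCA, CCAAT and TATAAA. Copies of GGGCGG can overlap each other, and a match is a string of letters and not a binding site.
Dleu2 (chr14:61682324-61682623, minus strand): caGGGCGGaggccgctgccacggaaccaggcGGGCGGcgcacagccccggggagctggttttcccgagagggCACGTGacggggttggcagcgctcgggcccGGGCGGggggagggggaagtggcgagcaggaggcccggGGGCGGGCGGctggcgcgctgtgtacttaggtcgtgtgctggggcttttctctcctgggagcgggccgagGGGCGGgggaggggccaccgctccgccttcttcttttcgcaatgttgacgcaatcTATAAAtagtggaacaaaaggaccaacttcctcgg
Lncpint (chr6:31218425-31218724, minus strand): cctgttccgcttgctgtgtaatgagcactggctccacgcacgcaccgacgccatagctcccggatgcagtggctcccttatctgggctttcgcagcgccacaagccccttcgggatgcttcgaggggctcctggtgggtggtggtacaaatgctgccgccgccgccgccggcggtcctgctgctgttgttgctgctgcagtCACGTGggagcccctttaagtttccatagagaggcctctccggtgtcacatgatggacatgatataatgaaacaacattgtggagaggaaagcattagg
Dancr (chr5:74092810-74093109, plus strand): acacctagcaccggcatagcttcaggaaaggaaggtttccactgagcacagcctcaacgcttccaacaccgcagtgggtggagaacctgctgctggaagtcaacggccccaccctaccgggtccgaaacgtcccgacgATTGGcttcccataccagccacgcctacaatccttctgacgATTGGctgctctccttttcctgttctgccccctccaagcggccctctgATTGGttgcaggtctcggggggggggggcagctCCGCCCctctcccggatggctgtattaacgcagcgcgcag
Malat1 (chr19:5802623-5802922, minus strand): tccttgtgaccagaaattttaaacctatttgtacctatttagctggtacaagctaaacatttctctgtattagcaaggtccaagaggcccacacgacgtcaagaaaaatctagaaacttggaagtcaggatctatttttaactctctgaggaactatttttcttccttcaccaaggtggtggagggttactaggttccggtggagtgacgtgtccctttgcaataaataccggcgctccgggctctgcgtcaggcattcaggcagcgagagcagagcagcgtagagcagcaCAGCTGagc

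The Dleu2 window held 6 copies of GGGCGG, with 29 CpG dinucleotides and a GC content of 69.0%. The Lncpint window held 1 CACGTG and no GC box at a GC content of 58.7%, and that of Dancr held 3 CCAAT matches and 1 GC box. Malat1, an abundant nuclear RNA, had the lowest GC content of the 4 at 47.0%, with 1 CAGCTG and no GC box. Of 4886 noncoding start windows in distal sequence, 436 (8.92%), from 378 genes, overlapped a member. Their median GC content was 52.3%, against 46.0% in the 4450 distal noncoding windows outside members, 57.0% in 20084 protein-coding windows and 52.7% in all 32851 windows of the table. The median ratio of observed to expected CpG was 0.315 in members, 0.196 in distal windows outside them and 0.586 at protein-coding starts. The GC box was found in 22.0% of the windows in members, 6.65% of those outside, 47.0% of protein-coding windows and 35.7% of all windows. The 1953 noncoding windows in H3K27ac regions nearer to or inside genes had a median CpG ratio of 0.666 and a GC box in 51.5%. Windows in members thus lay above other distal windows and below both protein-coding windows and the other acetylated noncoding ones in CpG ratio and in GC boxes.

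The other motifs are given in the same way. CAGCTG, the E-box that proneural factors bind, was in 18.3% of windows in members, 17.2% of distal windows outside them and 16.3% of all windows. CACGTG, the E-box of Myc and its partners, was in 8.49% of windows in members, 4.99% of those outside and 7.15% of all. TGANTCA was in 11.2% and 11.0% of distal windows inside and outside members and in 7.81% of all windows. TATAAA was in 11.7% and 18.5% of distal windows inside and outside members and in 13.6% of all windows. CCAAT was in 31.2%, 39.6% and 37.4% of these, and TGACGTCA in 1.83%, 0.629% and 1.79%. Windows were not replicates, several starts belong to 1 gene, and none of these shares was tested.

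MicroRNA genes were the other sequences in reach, and 11 of them lay in 9 members. All 11 had a mature sequence in the RefSeq table, 20 sequences in total. Shown are those of the conserved microRNAs discussed below, with the seed, bases 2 to 8, in capitals. Only the let-7 pair shared a seed.
mmu-let-7c-5p: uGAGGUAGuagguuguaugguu
mmu-let-7b-5p: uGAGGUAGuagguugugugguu
mmu-miR-9-5p: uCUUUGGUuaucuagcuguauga
mmu-miR-125b-5p: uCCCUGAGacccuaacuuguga
mmu-miR-30a-5p: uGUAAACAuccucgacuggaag
mmu-miR-137-3p: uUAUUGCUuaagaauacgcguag

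Mirlet7c-2 and Mirlet7b, whose products hold back proliferation in many tissues, lay in the same member of 12241 bp between Wnt7b and Ppara (chr15:85698503-85710743). Its peaks stood at a fold enrichment of 5.24 in H3K27ac replicate 1 and 4.88 in replicate 2. Mir9-2, which makes the neural microRNA miR-9, lay over 91.7% of its length in a member of 1268 bp between Mef2c and Tmem161b at 10.5 and 8.43, with no H3K27me3 peak. Mir125b-1 stood at 5.62 and 4.96 and Mir30a at 5.13 and 3.51. Mir137, which makes another microRNA of neural progenitors, alone among these loci was overlapped by H3K27me3 of both libraries. Its member of 853 bp had H3K27ac at 3.77 and 3.63 and was covered over its whole length by H3K27me3 peaks of both libraries, at 6.87 and 4.63. The other members stood at 10.3 and 8.51 (Mir3089), 6.45 and 7.25 (Mir6516), 3.56 and 3.44 (Mir802) and 6.06 and 5.25 (the predicted gene Gm51276). H3K27me3 replicate 1 alone had a peak in the members of the let-7 pair (3.23), Mir125b-1 (3.31), Mir3089 (3.26), Mir6516 (3.67) and Mir802 (3.55).

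The files are peak lists without read counts, so the depth of the libraries is unknown and a region without a peak had none at the authors' threshold. On chromosomes 1 to 19 they held 76790 and 63503 H3K27ac peaks in replicates 1 and 2, and 93104 and 63826 H3K27me3 peaks. As a check of the label, all 12 marker genes of globose basal and neuronal progenitor cells had H3K27ac of both libraries at a gene end, against 62.6% of all protein-coding genes, and 9 of the 12 also had H3K27me3 of both libraries there. Of the markers of other cells, 2 of 5 horizontal basal, 4 of 5 sustentacular, 3 of 4 mature neuron, 2 of 5 melanocyte, 3 of 5 leukocyte and 0 of 5 mast cell genes had it. Krt15 and Trp63 (horizontal basal), Cyp1a2 (sustentacular), Tyr and Dct (melanocyte), Ptprc (leukocyte) and the 5 mast cell genes had no H3K27ac peak of either library there. In replicate 1, 3 of 5 horizontal basal, 4 of 4 mature neuron, 3 of 5 melanocyte and 4 of 5 leukocyte genes had one. The part of other cells in the regions was not tested.

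Fold enrichment, the signal of a peak over its local background as the authors' peak caller gave it, is used below as the level of a region. It is the value of the whole peak that holds the region, and since it comes from the lists that chose the members, it is described and not tested. The median over members was 4.12 in replicate 1 (range 1.43 to 20.5) and 3.58 in replicate 2 (1.46 to 16.2). Regions at the ends of protein-coding genes, within 1 kb, were higher, with medians of 8.24 and 6.27 over 12545 regions. Regions inside genes (3.98 and 3.50, 21046 regions) and intergenic regions up to 20 kb away (4.15 and 3.57, 5440 regions) were close to the members. Distal stretches therefore resembled other acetylated stretches away from gene ends in level. They were also close in length, with a median of 786 bp (quartiles 425 and 1362) against 834 bp inside genes, 802 bp in nearer intergenic sequence and 1422 bp at gene ends.

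**Figure D1:**
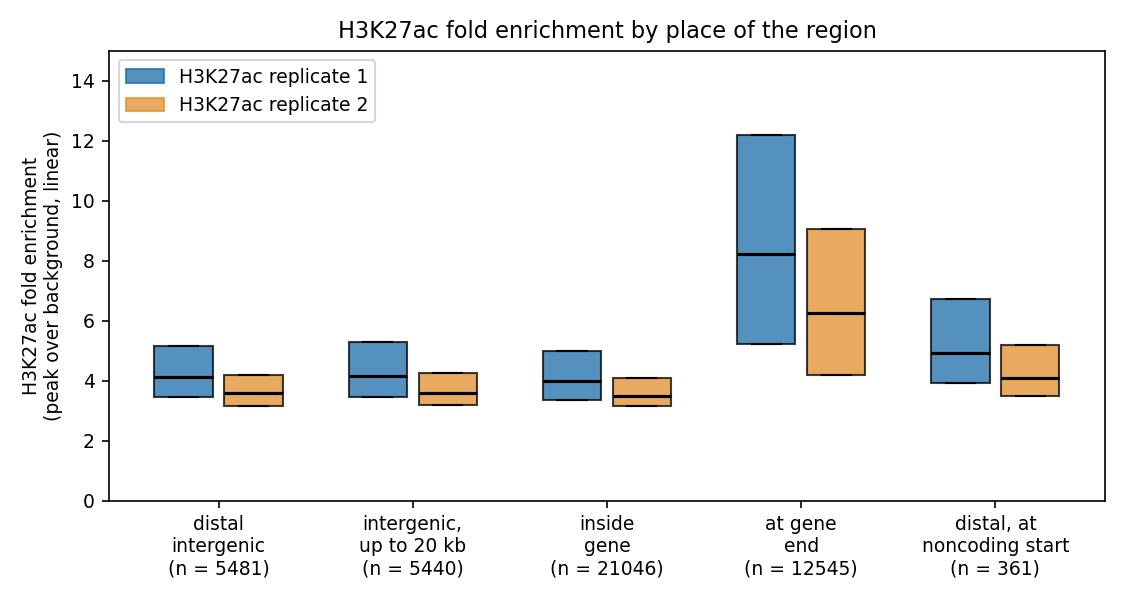
H3K27ac fold enrichment (linear, vertical axis) of regions by place, for replicate 1 (blue) and replicate 2 (orange); boxes span the quartiles and the line is the median. Distal members have medians of 4.12 and 3.58, near the 2 other places away from gene ends and below gene ends at 8.24 and 6.27; members at a noncoding start lie between, at 4.93 and 4.09.

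By the peak caller's q-value, members were like other regions away from gene ends. A −log10 q of at least 5 in both libraries was reached by 606 members (11.1%), against a background of 26.7% over all H3K27ac regions, by 67.1% of regions at gene ends, by 13.2% in nearer intergenic sequence and by 10.2% inside genes. Replicate 1 gave the higher fold enrichment in 4055 members (74.0%). Across members the log2 fold enrichments of the replicates had a Pearson correlation of 0.693 and the fold enrichments a Spearman correlation of 0.587 (n = 5481 regions). At gene ends these were 0.904 and 0.908 (n = 12545), inside genes 0.690 and 0.553 (n = 21046) and in nearer intergenic regions 0.677 and 0.583 (n = 5440). These correlations describe regions of the same pair of libraries, which share the genome, its mappability and, in part, peaks: 538 members shared a replicate 1 peak with another member and 340 a replicate 2 peak. A peak that reached within 20 kb of a gene held 57 members in replicate 1 and 33 in replicate 2.

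**Figure D2:**
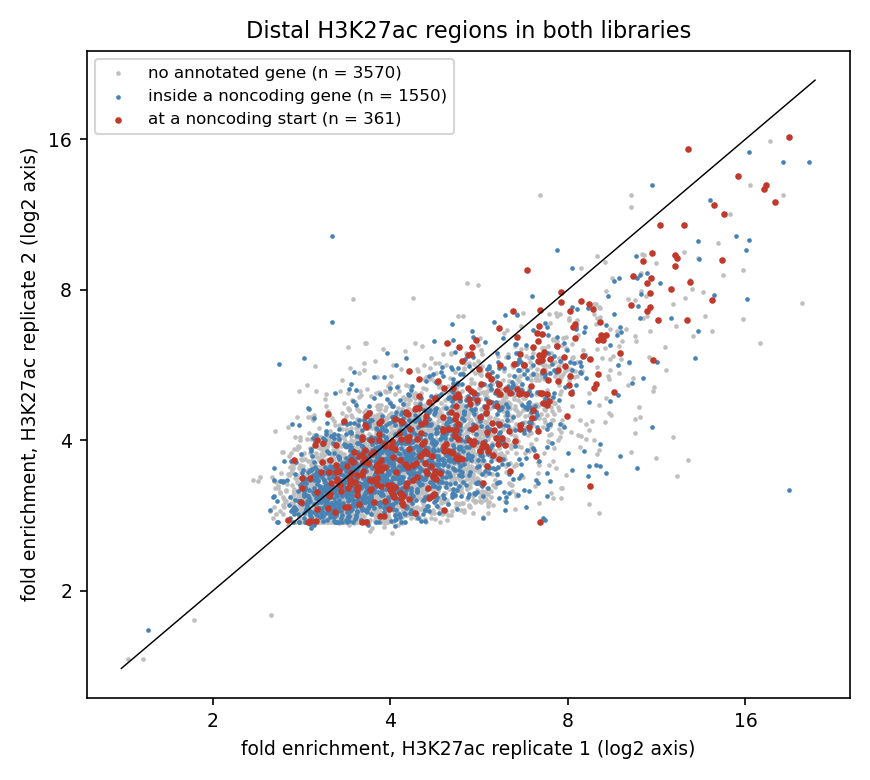
Each point is 1 of the 5481 members, with its H3K27ac fold enrichment in replicate 1 (horizontal) and replicate 2 (vertical), both on log2 axes; the line marks equal values. Most points (74.0%) lie below the line, members at a noncoding start (red, n = 361) have the higher medians, 4.93 and 4.09, and 5 members lie below 2 in at least 1 library.

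Requiring both libraries removed many distal peaks. Of 10842 peaks in distal sequence in replicate 1, 55.1% were overlapped by a peak of replicate 2, and of 8849 in replicate 2, 69.0% by a peak of replicate 1. Over all H3K27ac peaks the shares were 59.9% and 75.3%, and at gene ends 85.3% and 93.4%. The same rule on the bases of replicate 1 alone would give 9822 members and on those of replicate 2 alone 7972. Distal replicate 1 peaks found in both libraries had a median fold enrichment of 3.96 and those found alone 3.23, and in replicate 2 the medians were 3.52 and 3.01. Peaks seen in 1 library alone were thus lower, and the member set holds the upper part of the distal peaks.

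The limits of the rule cut through like regions. Just past 20 kb were a region 20009 bp from Actr2 (3.83 in replicate 1 and 3.01 in replicate 2), one 20021 bp from Echdc3 (3.32 and 3.36) and one 20027 bp from Terf2 (6.11 and 5.15). Just short of it were regions 19997 bp from Rock2 (4.99 and 5.43), 19964 bp from Akain1 (17.8 and 13.5) and 19960 bp from Ccdc3 (2.81 and 2.94). Of the regions of 200 bp, 3 stood at 3.08 to 3.43 in replicate 1 and 3.16 to 3.41 in replicate 2. Among those of 199 bp, 3 stood at 3.07 to 5.51 and 3.11 to 4.73, and 893 shorter distal pieces were left out.

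The highest members stood far above the medians of gene ends, 8.24 and 6.27. The best mean rank over the libraries was held by the member at the Dleu2 start, whose sequence is given above, with 18.97 in replicate 1 and 16.2 in replicate 2 (3876 bp, 68.0 kb from Kcnrg). Dleu2 is a lncRNA that hosts the microRNAs miR-15a and miR-16. A member of 2271 bp inside the same lncRNA stood at 16.2 and 15.1. The Lncpint start, of a lncRNA induced by p53, stood at 18.0 and 11.98 (180.0 kb from Mkln1) and carried H3K27me3 at 5.01 and 3.65. The start of C130071C03Rik, the host transcript of Mir9-2, stood at 17.2 and 12.7 (62.3 kb from Mef2c, a transcription factor of muscle and neurons) and also carried H3K27me3 at 4.90 and 3.86. The start of D730003I15Rik, between Atf3, a stress-induced transcription factor, and Nenf, stood at 15.6 and 13.5.

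Other members of best rank did not lie at a noncoding start window. Between Ifne, an epithelial interferon gene, and Mtap, a member of 1220 bp stood at 20.5 and 14.4, the maximum of replicate 1 among members. Others lay between Zfp958 and Shcbp1 (18.5 and 14.4), Chd2, a chromatin remodeller, and Fam174b (18.5 and 12.4), Zfp169 and Ptpdc1 (16.3 and 13.0), and Slc47a1 and Rnf112 (16.2 and 10.0). The last of these overlapped a tRNA gene. None of these was overlapped by H3K27me3 of both libraries, although replicate 1 had a peak in the member at Ifne (4.31).

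Length and level were not the same property. The longest member, 19127 bp between the tubulin genes Tuba1a and Tuba1c, stood at 8.23 and 6.83. Members of 18519 bp between Cebpb, a transcription factor, and Ptpn1, a phosphatase (9.28 and 6.50), and of 18048 bp between Cstad and 1700001O22Rik (10.3 and 8.51) followed, and the last of these holds Mir3089. The Malat1 member was 14947 bp long at 8.70 and 7.48. A member of 14237 bp between Klf14 and Mkln1 stood at 8.11 and 5.56, and one of 12415 bp between Wnt7b, a Wnt ligand, and Ppara, a nuclear receptor of lipid metabolism, at 14.4 and 9.93. All 6 were above the median of members in both libraries, and H3K27me3 of both libraries shared no base within any of them.

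Members were sparser at greater distance. Distal sequence made up 45.0% of the 2460 Mb spanned on these chromosomes, and members covered 0.559% of its 1107.79 Mb, at 4.95 members per Mb. The remaining sequence held 28.9 H3K27ac regions per Mb. The span ran from the first base of each chromosome, and sequence where no peak can be called was not taken out. The densities of members can therefore be too low. Density was 13.2 members per Mb at 20 to 30 kb (n = 1192), 11.9 at 30 to 50 kb (n = 1478), 7.62 at 50 to 100 kb (n = 1402) and 4.72 at 100 to 200 kb (n = 953). Beyond that it was 1.60 per Mb at 200 to 500 kb (n = 425) and 0.128 over 500 kb (n = 31). The median fold enrichment stayed close, at 4.12 and 3.58 in the nearest class and 4.03 and 3.52 at 200 to 500 kb. By chromosome, density ran from 3.12 per Mb on chromosome 14 to 7.30 on chromosome 11, and on chromosome 13 distal members were 22.4% of all H3K27ac regions, the highest share of the 19.

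**Figure D3:**
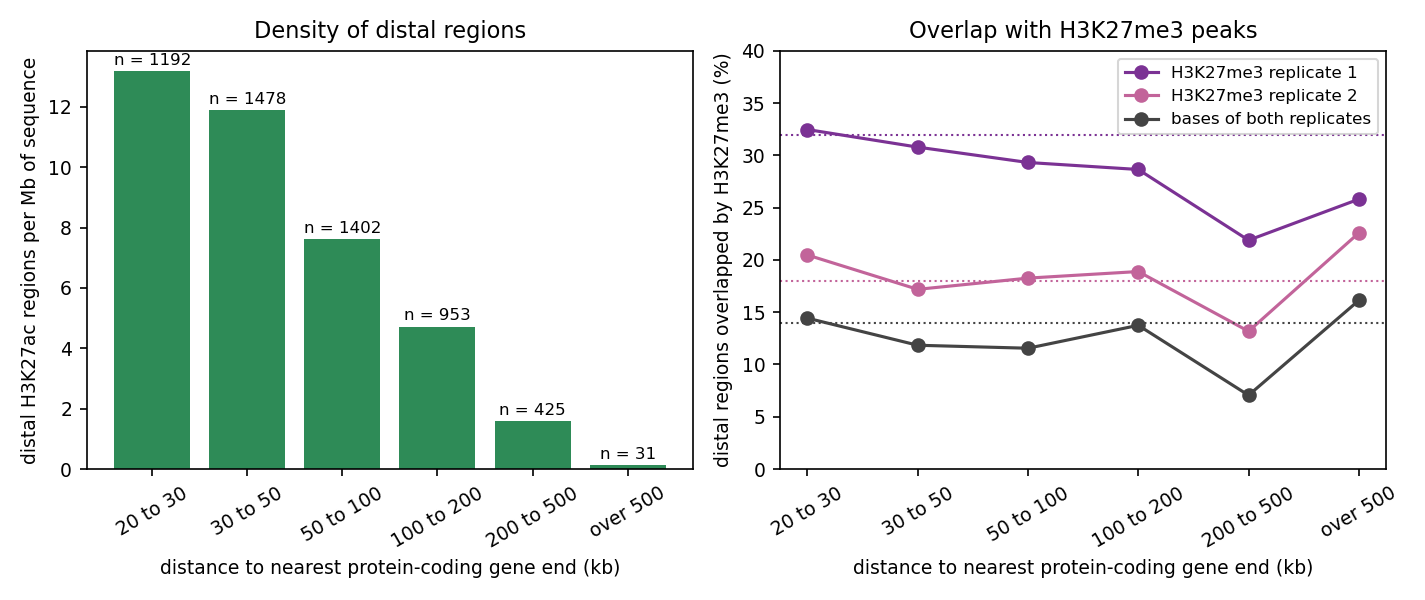
Left, members per Mb of distal sequence (bars, linear axis) by distance to the nearest protein-coding gene end, 13.2 in the nearest class and 0.128 in the farthest. Right, percent of members overlapped by H3K27me3 peaks of replicate 1, of replicate 2 and by bases of both; dotted lines are the shares over all H3K27ac regions (31.9%, 18.0% and 14.0%).

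The members farthest from any protein-coding gene included a pair with peaks in all 4 libraries. One of 212 bp, 1192 kb from Dsel, stood at 5.91 and 4.46 for H3K27ac and at 5.50 and 9.43 for H3K27me3. One of 751 bp, 1035 kb from Lrrc4c, stood at 2.51 and 1.79 for H3K27ac and at 3.60 and 1.66 for H3K27me3. The others lay 883 kb from Fam135b (4.88 and 2.99), 873 kb from Gsdmc on the side of Myc (2.72 and 3.52), 735 kb from Celf4 (4.82 and 3.18) and 716 kb from Adgrl2 (3.63 and 4.59), all without an H3K27me3 peak.

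A small group of members had very low fold enrichment and was singled out after its values were seen. In 5 members a library had a fold enrichment under 2, and 4 of them had peaks in all 4 libraries. The region near Lrrc4c had a −log10 q of 38.6 and 17.5 for H3K27ac at the low folds given above. A region of 1398 bp at the start of the mapped part of chromosome 9, before Alkbh8, stood at 1.86 and 1.75 with a −log10 q of 12.04 and 10.2. On chromosome 17, between Esp15 and Esp38, 3 neighbouring members at chr17:39843130-39848743 stood at 1.43 to 1.55 and 1.46 to 1.67, within H3K27me3 peaks of 7.41 and 4.64 whose −log10 q was 91.6 and 37.7. The third of these overlaps the annotated ribosomal RNA pseudogene Rn18s-rs5 over 730 bp of its 1271 bp. Across the members 138 had a −log10 q of at least 10 in both libraries, and 2 of these, near Lrrc4c and before Alkbh8, had a replicate 1 fold enrichment under the median of 4.12. The input libraries were not used here, and whether these regions are enriched in input was not tested.

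H3K27me3 was independent of the rule, and members were overlapped by it about as often as other H3K27ac regions. Peaks of replicate 1 overlapped 1627 members by at least 1 bp (29.7%), against a background of 31.9% of all H3K27ac regions. Peaks of replicate 2 overlapped 997 (18.2%, background 18.0%), and bases covered in both replicates overlapped 675 (12.3%, background 14.0%). When at least 50% of a member had to be covered, the last share was 6.29%, for which no background was computed. The shares at 1 bp are near the background and show nothing particular to the members. The share with both replicates was 24.0% at gene ends, 12.5% in nearer intergenic sequence and 8.81% inside genes. In members it was 8.87% at 200 to 500 bp, 11.9% at 500 to 1000 bp, 14.6% at 1000 to 2000 bp and 16.8% from 2000 bp upward. In the classes of 500 bp or more the members were within a few points of nearer intergenic regions (12.5%, 12.9% and 15.5%), and gene ends were higher in every class. By distance it was 14.4% at 20 to 30 kb, between 11.6% and 13.7% in the next 3 classes, 7.06% at 200 to 500 kb (30 of 425) and 16.1% beyond (5 of 31).

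Of the 675 members under H3K27me3 of both replicates, 176 were covered over their whole length, and the median coverage was 51.8%. The H3K27me3 peaks had a median fold enrichment of 3.75 in replicate 1 (2.76 to 10.8) and 3.35 in replicate 2 (1.66 to 9.43). H3K27ac levels did not stand apart in these members, with medians of 4.03 and 3.54 against 4.11 and 3.57 in the 3589 members with no H3K27me3 peak. The overlap rests on weak H3K27me3 peaks, and most H3K27me3 peaks of the lists were weak. A −log10 q of at least 5 was reached by 5.96% of all H3K27me3 peaks in replicate 1 and 2.35% in replicate 2. With such H3K27me3 peaks alone the overlap came to 11 members (0.201%). The share over all H3K27ac regions at this limit was not computed. Of the 11, 5 are the region near Dsel, the region near Lrrc4c and the 3 between Esp15 and Esp38.

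The 6 members with the best mean rank for H3K27me3 stood at 3.05 to 10.7 and 3.09 to 5.32 for H3K27ac. Between Dnajc1 and Commd3, a member of 1458 bp had H3K27me3 at 10.8 in replicate 1 and 6.19 in replicate 2, and H3K27ac at 4.63 and 3.09. A member 20.2 kb from Pax2, a transcription factor of kidney, eye and ear, had H3K27me3 at 9.06 and 5.59 and H3K27ac at 5.83 and 3.19. One 111 kb from Six2, a transcription factor of kidney progenitors, had H3K27me3 at 9.07 and 5.38 and H3K27ac at 4.77 and 4.83. The member near Jak1, a cytokine receptor kinase, was high for both marks, with H3K27me3 at 7.95 and 6.73 and H3K27ac at 10.7 and 5.32. Another lay 31.4 kb from the predicted gene Gm11544 and 54.3 kb from the collagen gene Col1a1 (H3K27me3 8.57 and 5.57, H3K27ac 3.05 and 3.24). The last, 75.9 kb from Hmga2, a chromatin protein of fetal tissue, had H3K27me3 at 9.02 and 5.02 and H3K27ac at 5.31 and 3.79.

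Away from protein-coding genes is not away from all genes. A noncoding start window overlapped 361 members (6.59%), against 4.63% of all H3K27ac regions. The share was 8.35% at gene ends, 4.91% in nearer intergenic regions and 1.83% inside genes. A further 1550 members lay in the body of a noncoding gene only and 3570 in no annotated gene. Start windows were at hand for 9291 of 26377 noncoding genes and pseudogenes. A member at the start of any other gene was therefore not counted among the 361 and can be in the body class. Of all 44512 H3K27ac regions, 4921 lay in the body of a noncoding gene only and 37529 in no noncoding gene. In the 5440 nearer intergenic regions these counts were 1106 and 4067. Members at a start were longer and stronger, with a median of 1394 bp and of 4.93 and 4.09 in fold enrichment, than members inside noncoding genes (824 bp, 4.10 and 3.58) and in no gene (734.5 bp, 4.05 and 3.54). A −log10 q of at least 5 in both libraries was reached by 32.1%, 11.6% and 8.68% of these classes. H3K27me3 of both libraries overlapped 19.1%, 12.3% and 11.7% of them. Length differs between the classes and moves with H3K27me3 overlap, and its part in that difference was not tested.

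Among noncoding genes, 1158 lncRNAs held 2167 kb of member sequence. Lncpint held the most among named ones, 45061 bp in 28 members, or 36.1% of the gene, and 1 of its members carried H3K27me3 of both libraries. Morrbid, a lncRNA of myeloid cell survival that lies beside Bcl2l11, held 18526 bp in 16 members with a maximum of 7.69 and 5.27. Junos, which is read outward from Jun, held 9741 bp in 7 members with a maximum of 11.1 and 13.0. Mirt1 held 8318 bp and Zmiz1os1 8254 bp, with maxima of 7.27 and 5.50 and of 12.1 and 8.93. AU019990 (6717 bp), Pvt1 beside Myc (5476 bp in 7 members, maximum 6.83 and 4.61) and the transcribed pseudogene Atp10d (5194 bp) completed the 8. The Dancr start, a lncRNA that keeps progenitors undifferentiated in skin, stood at 11.97 and 8.02 without an H3K27me3 peak and was added after its values were seen.

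Members were not spread evenly over the gaps between protein-coding genes. Of 5307 gaps long enough to hold a member, 1582 (29.8%) held at least 1, and 678 of these held a single member. At the other end 111 gaps held 10 or more, with 1739 members among them (31.7%). The gap between Irf2bp2, a transcriptional corepressor, and Tomm20, a mitochondrial import receptor, had the most, 49 members in 337 kb with a total of 89.0 kb. Its fold enrichments ran from 2.84 to 12.2 in replicate 1 and from 2.79 to 7.02 in replicate 2, and H3K27me3 of both libraries overlapped none of the 49. The gap from Klf14 to Mkln1, which holds Lncpint, had 41 members (3 under H3K27me3 of both libraries), with a gene end of H3K27ac at Mkln1 and not at Klf14.

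For the other 6 gaps of the first 8, counts of members under H3K27me3 of both libraries are set beside 12.3% of all members, and no difference between gaps was tested. Between Haao, an enzyme of tryptophan breakdown, and Zfp36l2, which promotes decay of messenger RNAs, 10 of 34 members carried it. Between Sox9, a transcription factor of supporting and gland cells, and Slc39a11, 5 of 34 did, and between Runx1 and Setd4 7 of 32. Between the kinase gene Map3k1 and Ankrd55 4 of 32 carried it, between Serp2 and Lacc1 1 of 31, and between Chd7, a chromatin remodeller, and Clvs1 0 of 31. The gap from Cebpb to Ptpn1, added after its values were seen, had fewer members, 27, but more acetylated sequence than any of these, 91.6 kb of 240 kb, and 8 members under H3K27me3 of both libraries.

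**Figure D4:**
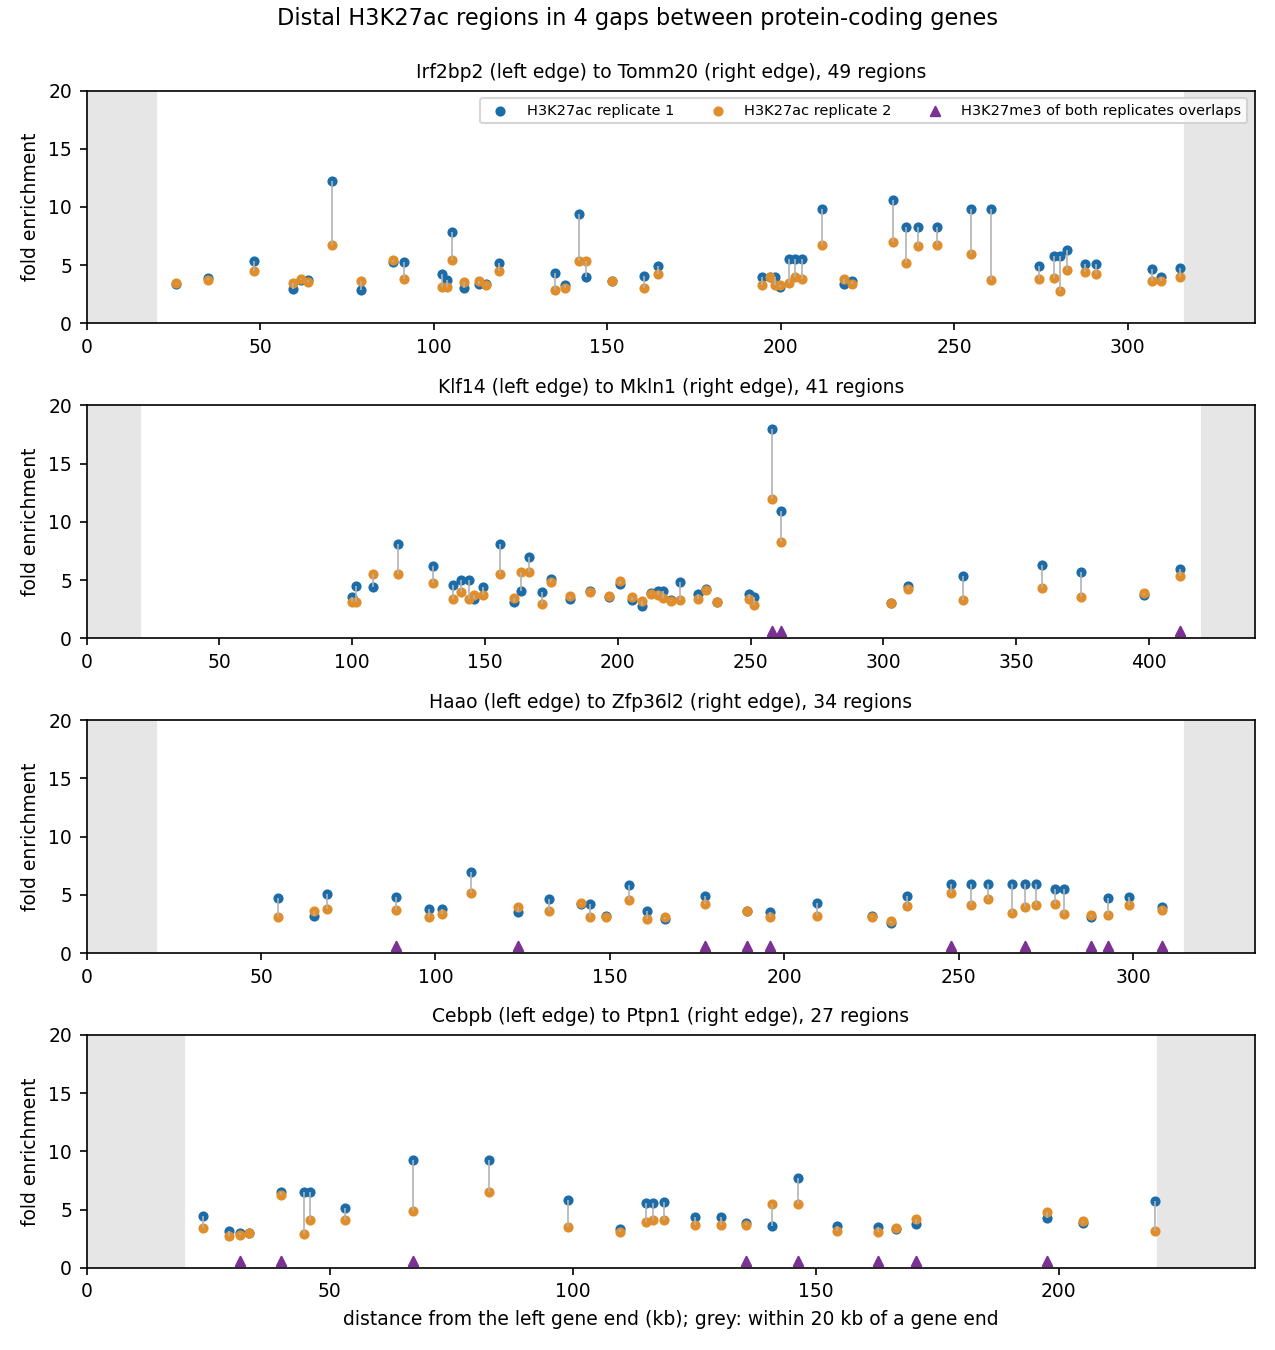
Members in 4 gaps between protein-coding genes, placed by distance from the left gene end (kb), with H3K27ac fold enrichment (linear) in replicate 1 (blue) and replicate 2 (orange) joined by a line; purple triangles mark members overlapped by H3K27me3 of both libraries, and grey is sequence within 20 kb of a gene end. Triangles are absent from the gap of Irf2bp2 and Tomm20 (0 of 49) and mark 3 of 41, 10 of 34 and 8 of 27 members in the others.

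When members up to 12 kb apart were joined, 3108 clusters resulted, 2102 of them of a single member. The 1006 others held 3379 members (61.6%) and had a median span of 9983 bp, and 48 spanned more than 40 kb. The longest, 162549 bp in the gap of Klf14 and Mkln1, contained the whole of Lncpint, held 34 members and was covered by them over 45.7% of its length. The next spanned 151026 bp between Cebpb and Ptpn1, with 24 members over 59.0% of its length. A cluster of 105280 bp between Wnt7b and Ppara joined 14 members over 59.9%, the let-7 member among them, with fold enrichments of 3.33 to 14.4 and 2.98 to 9.93.

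The gene nearest to a member mostly carried H3K27ac itself. Of the members, 83.4% had a nearest gene with H3K27ac of both libraries at a gene end, against a background of 62.6% of all protein-coding genes and 57.5% of the 8088 genes that border a gap long enough to hold a member. H3K27me3 of both libraries was at the nearest gene of 36.1% of members, against 29.4% of all genes and 33.2% of the bordering ones. For members called from H3K27ac peaks of a −log10 q of at least 5 the share was 27.4%, below both. With gene ends called without H3K27me3 replicate 2 it was 56.4%, for which no background was computed. Counted once each, 2028 of the bordering genes were nearest to at least 1 member (25.1%), and of these 79.2% carried H3K27ac and 37.0% H3K27me3. Members under H3K27me3 of both libraries had a nearest gene with H3K27me3 in 51.4%, and members with no H3K27me3 peak in 30.5%. Members of 1 gap share that gene, the nearest gene need not be the one that a region acts on, and these shares were not tested.

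Neighbours of members were read through 8 gene lists that were written with earlier results of these data known, so their counts are descriptions. Of the bordering genes, 25.1% were nearest to a member. Among neurogenic and progenitor transcription factors it was 25 of 39, with 164 members, and among epithelial and horizontal basal cell genes 12 of 15, with 60 members. Growth and cell cycle genes came to 11 of 18 (34 members) and genes of Wnt, Notch, Fgf and Bmp signalling to 17 of 30 (47 members). Neuron genes came to 5 of 13 (16 members), and sustentacular and gland genes to 2 of 7 (2 members). Regulators of other lineages came to 6 of 29 (12 members), and Polycomb and trithorax genes to 2 of 8 (22 members), both close to the share of all bordering genes. A longer gap has more room for members, gap lengths were not matched between lists, and their part in these counts was not tested.

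Within the list of progenitor transcription factors, Id2 had the most members, in a gap of 1211 kb. This inhibitor of proneural factors had 25, all on 1 side at 22.5 to 448 kb, with fold enrichments of 2.69 to 6.50 in replicate 1 and 2.71 to 5.81 in replicate 2. Runx1, a transcription factor of blood and of olfactory precursors, had 18 at 2.40 to 6.42 and 2.92 to 5.94. Sox4 and Sox11, related factors of immature neurons, had 17 and 12. The strongest member at Sox11, 157 kb away, stood at 13.7 and 7.09, and the strongest at Sox4 in replicate 2 stood at 4.25 and 5.84. Sox2, which marks olfactory progenitors and supporting cells, had 10 members at 39.1 to 453 kb, none above 5.37 in either library. Bcl11a had 10 as well. Sox2, Bcl11a and Hes1, Neurog1 and Neurod1, described next, were chosen after their values were seen.

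Hes1, a Notch target that represses neurogenesis, had 11 members, and its sides differed. Of the 5 on the side of lower coordinates, 4 were overlapped by H3K27me3 of both libraries, and none of the 6 on the other side was. The member 55.7 kb away, at a noncoding start, stood at 6.12 and 6.71 for H3K27ac and was wholly covered by H3K27me3 at 5.09 and 3.37. At Neurog1, which commits progenitors to the neuronal fate, both members (26.2 and 27.8 kb away) were wholly covered by H3K27me3 peaks of 7.18 and 4.50, with H3K27ac at 3.46 and 5.25 in replicate 1 and 3.55 in replicate 2. Neurod1, a factor of neuronal differentiation, bordered a long gap and had no member. Eed and Jarid2, a core subunit and a partner of Polycomb Repressive Complex 2, had 10 and 12 members. Those of Eed stood at 3.79 to 7.73 and 3.32 to 5.81 with no H3K27me3 of both libraries, and those of Jarid2 at 3.44 to 5.62 and 2.99 to 4.19 with 1.

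**Figure D5:**
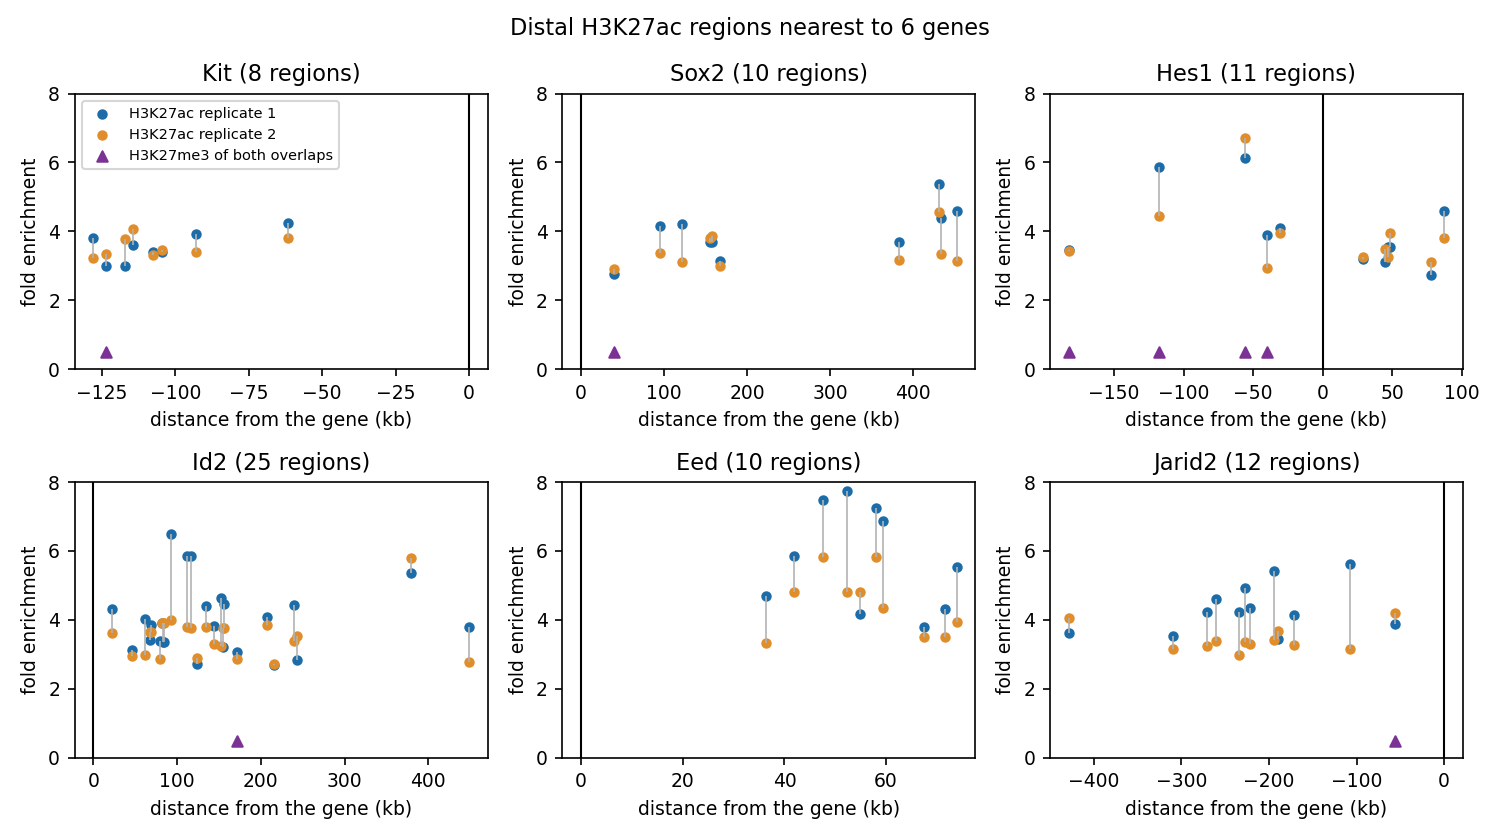
H3K27ac fold enrichment (linear) of the members nearest to 6 genes, against distance from the gene in kb (negative: lower coordinates; the black line is the gene), in replicate 1 (blue) and replicate 2 (orange); purple triangles mark overlap with H3K27me3 of both libraries. Members lie on 1 side of Kit, Sox2, Id2, Eed and Jarid2 and on both sides of Hes1, where 4 of 5 on the lower side carry a triangle.

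Among growth genes, where 3 tied for the last place, Myc had 9 members. Of these, 7 at 47.3 to 220 kb overlapped Pvt1, which had no start window in the reference used. The nearest, across the lower-coordinate end of Pvt1, was the strongest at 6.83 and 4.61. H3K27me3 of both libraries overlapped 160 bp of it. Kit, the receptor used for the selection, had 8, all at 61.7 to 128 kb on the side of lower coordinates, at 2.99 to 4.24 in replicate 1 and 3.24 to 4.08 in replicate 2. In replicate 1, 7 of the 8 were under the median of members, 4.12, and in replicate 2 5 were under 3.58, and 1 of the 8 was overlapped by H3K27me3 of both libraries. Cdk6, a kinase of cell cycle entry, had 3, the farthest of which stood at 11.2 and 5.11, and Mycn and Mki67 had 3 each. Of the epithelial genes, Sox9 had 13 members at 2.60 to 4.41 and 2.89 to 4.37, and Grhl2, a factor of epithelial identity, had 10. The Grhl2 member at a noncoding start 96.0 kb away stood at 12.1 and 9.40. Epcam, an epithelial adhesion gene, had 7 members and Itga6, an integrin of basal cells, 6.

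Of the 16 members of neuron genes, 0 were overlapped by H3K27me3 of both libraries, against 12.3% of all members, a difference that was not tested in so few. The growth cone gene Gap43 had 4, at 5.26 to 11.0 and 3.67 to 5.86, all above the median of members in both libraries. Stmn2, a microtubule regulator of growing axons, and the adhesion gene Ncam1 had 5 each, with maxima of 7.72 and 4.22 and of 8.58 and 4.89. Among signalling genes Tgfb2 had 7 members, none under H3K27me3 of both libraries, while 3 of 6 at Bmp7 and 3 of 4 at Wnt4 were. The Wnt4 members stood at 2.96 to 4.91 and 2.75 to 4.45 for H3K27ac. Dusp6, a feedback phosphatase of Fgf signalling, had 5. Sall3 and Sall1, regulators of other tissues, had 4 and 3 members, of which 2 and 1 were overlapped.

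The marks were last compared by the share of their peak bases that fell in distal sequence, which the gene table alone defines. This share was 11.3% and 11.1% in the H3K27ac libraries (11.2% ± 0.139, SD, n = 2) and 24.2% and 27.4% in the H3K27me3 libraries (25.8% ± 2.32, SD, n = 2), against 45.0% of the span. H3K27ac was lower by 14.6 percentage points, and the libraries of the marks did not overlap. With 2 against 2 the exact permutation test, two-sided, gave p = 0.333, which is the smallest it allows, so the design cannot pass the usual threshold. With peaks of a −log10 q of at least 5 the difference was −1.09 percentage points (exact permutation p = 0.667). Of distal H3K27me3 peaks, 41.1% of those of replicate 1 and 49.6% of those of replicate 2 were overlapped by the other library, against 42.5% and 57.1% of all H3K27me3 peaks.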

How the data were processed

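Chromatin from c-Kit selected cells was profiled with antibodies to H3K27ac and H3K27me3, 2 libraries each, and 3 input libraries were not analysed here. The submitters' processing notes name fastp, Bowtie, Picard and MACS2 and the builds GRCm38 and mm10. Their versions and settings are not given in the sources used here. Per library, the authors deposited 1 broad peak list, in which each peak has a fold enrichment (a ratio), −log10 p and −log10 q values and a score. The lists have no header, and these columns were read by the peak caller's format. No −log10 q was below 1, and read depth is unknown, so no counting interval is given.

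Peaks on chromosomes 1 to 19 were merged per library and intersected between the H3K27ac libraries, and distances were measured to the 20661 protein-coding genes of the RefSeq GRCm38.p6 gene table. A gene carried a mark at a gene end where each library had a peak within 1 kb of either of its ends. The libraries could differ in which end it was. H3K27me3 overlap needed 1 bp. Start windows and microRNAs were RefSeq sequences of the same build. The code used Python 3.11.15, pandas 2.3.3, numpy 2.4.6 and matplotlib 3.10.9 and was checked on 200 simulated layouts, of which 200 were recovered.

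The members and gene lists were chosen with earlier results of these data known. Regions were named by rule: the 12 of best mean rank in H3K27ac fold enrichment, the 6 longest, the 6 farthest, the 6 of best rank in H3K27me3, 3 on each side of each limit, the 8 gaps with the most members, up to 4 genes per list and the 8 noncoding genes with the most member bases, predicted symbols left out. Some regions and genes that the rule names are not reported here. Regions are not replicates, so shares stand beside their background without a test. The only test compared libraries, by an exact permutation of the 4 labels. Alternatives covered replicates, peak threshold, distance, length, overlap and gene end window.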

Additional observations from a re-analysis of the deposited data

How the results depend on the processing

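The number of members followed the rule and the peak threshold. It was 3253 with H3K27ac peaks of a −log10 q of at least 2 and 606 with at least 5, 2811 beyond 50 kb and 1409 beyond 100 kb, 1473 when distance was taken to any annotated gene, noncoding ones included, and 7972 to 9822 when 1 H3K27ac library was left out, the highest without replicate 2. The median length was 1020 and 1640 bp at the q limits of 2 and 5, 749 and 725 bp beyond 50 and 100 kb, 1081 and 666 bp with a minimum length of 500 and 1 bp, 677 bp with any annotated gene and 841.5 bp when regions up to 1 kb apart were joined, and it was 772 to 798 bp with 1 library left out. The share overlapped by H3K27me3 was 11.4% to 29.7% with 1 library left out, the highest without H3K27me3 replicate 2, 34.5% with either replicate, 6.29% when at least 50% of the region had to be covered, and 3.98% and 0.201% with H3K27me3 peaks of a −log10 q of at least 2 and 5. The share whose nearest gene carried H3K27ac was 79.9% beyond 100 kb, 81.2% with any annotated gene, 80.8% and 86.0% with windows of 500 and 2500 bp, 81.9% and 82.4% with members called without H3K27ac replicate 1 or 2, and 84.8% and 86.8% with gene ends called without replicate 1 or 2. The share whose nearest gene carried H3K27me3 was 56.4% with gene ends called without H3K27me3 replicate 2. No other alternative moved it by more than the spread between replicates (14 of 15), but that spread is wide, an SD of 12.9 percentage points. Within it the share was 27.4% with H3K27ac peaks of a −log10 q of at least 5. It was 31.3% and 42.9% with windows of 500 and 2500 bp. The difference between marks in distal peak bases kept its sign in all 9 alternatives and was −16.2 to −13.0 percentage points with 1 library left out. No paired analysis was possible because the member values are descriptions from both libraries together, and equal numbers of H3K27ac and H3K27me3 libraries are not given as marking the same pool (the labels give H3K27me3 replicate 1 and H3K27ac replicate 2 a shared input). The depth of the libraries is unknown and no input peaks were used here, so the absence of a peak is not the absence of the mark.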

Other observations

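The sex chromosomes were outside the rule. With the same limits, chromosome X held 577 H3K27ac regions of at least 200 bp, of which 69 were distal, at 0.690 per Mb of distal sequence. H3K27me3 of both libraries overlapped 17 of the 69. The share over all 577 was not computed, so this count shows nothing particular to distal regions of chromosome X. Chromosome Y held 8 regions, of which 2 were distal, in 78.5 Mb of distal sequence.

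Some single members of the gene lists stood high in H3K27ac and were not described above because their genes had few. They were chosen after their values were seen. The only member of Tcf12, a partner of proneural factors, lay 20.8 kb away and stood at 15.9 in replicate 1 and 8.75 in replicate 2, with no H3K27me3 of both libraries. The only member of Smad7, an inhibitor of Tgf-beta signalling, lay 23.8 kb away at 14.1 and 6.62 and was overlapped by H3K27me3 of both libraries.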
